A study of Mus musculus with 10 samples.

Results

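Krüppel-like factors (Klf) are transcription factors that bind GC-rich and CACCC-containing DNA through zinc fingers at their C-terminal end. Here, 9 Klf genes (Klf2, Klf3, Klf4, Klf5, Klf6, Klf9, Klf10, Klf13 and Klf17) were followed by name through all 10 RNA-seq libraries of a mouse study of maternal mRNA degradation. They are 9 of the 21437 gene names in the expression table, which holds 5 further Klf genes. The libraries were 2 each of control MII oocytes, control 2-cell embryos, control 4-cell embryos, Ago2 kd 2-cell embryos and Ago2 kd 4-cell embryos. Controls were labelled wild type, and ICR was given as the strain of every sample. According to the Methods, oocytes came from 7-week-old superovulated ICR females, whereas embryos came from 7-week-old F1 females mated with F1 males, so strain and stage cannot be told apart between oocytes and embryos. In Ago2 kd embryos, siRNA against Ago2 and AGO2 antibodies were injected into the zygote. AGO2 is the Argonaute protein that cuts RNA matched by its small RNA guide. A scrambled siRNA is named as negative control, but whether the sequenced control embryos received it is not stated, and neither is the number of embryos in a library. Ago2 mRNA was not analysed here.

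The family is divided by the partners of its N-terminal regions. KLF2, KLF4, KLF5 and KLF6 mostly activate transcription, and the first 3 of these replace each other in keeping mouse embryonic stem cells pluripotent. KLF3 represses through the corepressor CtBP, and KLF9, KLF10 and KLF13 can repress through the SIN3A and histone deacetylase complex. KLF17, the most divergent of the 9, is known from germ cells and early embryos. In the mouse, the zygotic genome becomes broadly active at the 2-cell stage, when mRNAs inherited from the oocyte are being cleared, so a Klf mRNA can be inherited, newly made or both.

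Values were FPKM (fragments per kilobase of exon, scaled to the mapped fragments of the library), a level per transcript length that can be compared between genes. The FPKM of a library summed to 178681 to 458874. Among genes above 10 FPKM in the other replicate, 14.6% were below 0.1 FPKM in 4-cell Ago2 kd replicate 1, against 1.61% to 5.81% in the other 9 libraries. Gapdh was at or below 0.167 FPKM throughout, so a gene without signal is described as listed at 0. Seven-digit values made up 18.7% and 19.7% of the values above 0 in the MII oocyte libraries and at most 0.212% in each embryo library. How this difference in precision arose is not described, and the spread between the oocyte columns is therefore uncertain. Summed over 7 oocyte markers, levels ran from 6864 to 8333 FPKM in oocytes, whereas 4-cell embryos had 4.38 to 10.7 FPKM in control and 20.9 to 36.8 FPKM after Ago2 kd. The 1 cumulus cell marker found in the table, of 11, was at 0 in all 10 libraries. Comparisons were made on log2(FPKM + 1) with limma, a linear model per gene whose variance estimate borrows from the other genes. A gene was called changed at a Benjamini-Hochberg adjusted p below 0.05 over the 8726 genes that reached 1 FPKM in 2 or more libraries. The 9 genes include 8 of these, and Klf3 did not reach this level.

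The sequences before the transcription start are shown for Klf17, the most abundant member, and for Klf2, Klf4 and Klf9, which were low in oocytes and higher in 4-cell control embryos. RefSeq on GRCm38.p6 gave this window for 7 of the 9 genes. Each line holds the 250 bases before the RefSeq start, 5′ to 3′ on the strand of the gene. The gene positions given below are from GENCODE, which places the start of Klf2 at 72319033, inside its window. The Klf2 match to CACCC lies after that start. The GENCODE starts of Klf3 and Klf6, whose windows are not shown, also lie inside their windows. Capitals mark CACCC and GGGCGG, the core letters of the CACCC box and the GC box that Klf and Sp proteins bind, on either strand, with overlapping matches counted separately.
Klf17, chr4:117765667-117765916, minus strand: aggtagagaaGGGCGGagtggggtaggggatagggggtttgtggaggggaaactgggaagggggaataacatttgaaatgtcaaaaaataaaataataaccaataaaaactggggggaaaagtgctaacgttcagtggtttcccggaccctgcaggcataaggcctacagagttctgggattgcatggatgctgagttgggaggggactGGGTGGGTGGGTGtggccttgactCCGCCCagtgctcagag
Klf2, chr8:72318812-72319061, plus strand: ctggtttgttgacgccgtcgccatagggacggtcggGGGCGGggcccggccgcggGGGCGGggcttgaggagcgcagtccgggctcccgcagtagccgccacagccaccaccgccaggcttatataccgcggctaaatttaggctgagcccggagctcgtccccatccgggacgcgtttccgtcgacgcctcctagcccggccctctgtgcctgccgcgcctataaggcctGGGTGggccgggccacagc
Klf4, chr4:55532476-55532725, minus strand: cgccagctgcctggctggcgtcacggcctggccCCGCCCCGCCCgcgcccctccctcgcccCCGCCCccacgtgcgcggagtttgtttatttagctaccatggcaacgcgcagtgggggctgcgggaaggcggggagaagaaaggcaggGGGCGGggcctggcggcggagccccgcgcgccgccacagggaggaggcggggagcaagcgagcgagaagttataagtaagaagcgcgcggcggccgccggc
Klf9, chr19:23140976-23141225, plus strand: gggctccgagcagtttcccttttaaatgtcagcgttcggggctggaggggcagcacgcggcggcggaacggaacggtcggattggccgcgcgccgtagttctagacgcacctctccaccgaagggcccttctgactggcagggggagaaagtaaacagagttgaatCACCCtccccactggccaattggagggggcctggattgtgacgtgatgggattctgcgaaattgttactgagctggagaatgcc
The Klf17 window had 4 CpG dinucleotides and 52% G or C, and the other windows had 18 to 32 CpG and 59.6% to 78.4% G or C. By CpG number, 37.8% of the 32851 windows in the reference were poorer than that of Klf17, and 78.3% to 95.4% were poorer than those of the other 6 genes. The Klf17 window held 3 matches to CACCC, which overlap as a short repeat, and 2 to GGGCGG. Klf2 had 1 and 2 matches, Klf4 had 0 and 4, and Klf9 had 1 and 0. CACCC was found in 5 of the 7 windows and in 52% of all windows, and GGGCGG in 6 of the 7 and in 32.7% of all. These matches describe the letters of the window only.

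Klf17 had the highest level of the 9 genes in every library, and Klf2, Klf5 and Klf9 reached more than 10 FPKM at the 4-cell stage only. Klf17 made up 74.8% and 98% of the summed FPKM of the 9 genes in the oocyte libraries and 84.7% and 88.2% in 2-cell control embryos. Its share was 58.4% and 64.1% in 4-cell control embryos, the lowest of the 5 groups. Without Klf17, the other 8 genes summed to 21.1 and 11.6 FPKM in oocytes. The control sums were 42.4 and 45 FPKM at the 2-cell stage and 208.9 and 283.7 FPKM at the 4-cell stage. The 2-cell Ago2 kd libraries had 28.2 and 30 FPKM, and the 4-cell Ago2 kd libraries 142.6 and 69 FPKM. At both stages both Ago2 kd sums lay below both control sums. At the 2-cell stage this separation rested on Klf10, with 25.9 and 25.5 FPKM in control and 23.5 and 11.5 FPKM after Ago2 kd. At the 4-cell stage this separation rested on Klf2, with 86.6 and 63.8 FPKM in control and 0 in both Ago2 kd libraries. How often other sets of genes separate in this way was not tested. The number of members at 1 FPKM or more was 4 in both oocyte libraries. At the 2-cell stage it was 5 and 7 in control and 5 and 6 after Ago2 kd. At the 4-cell stage it was 7 and 8 in control and 6 and 5 after Ago2 kd. Over all genes in the table, 5625 and 5453 reached this level in the 4-cell control libraries, against 4885 and 5823 after Ago2 kd.

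**Figure D1:**
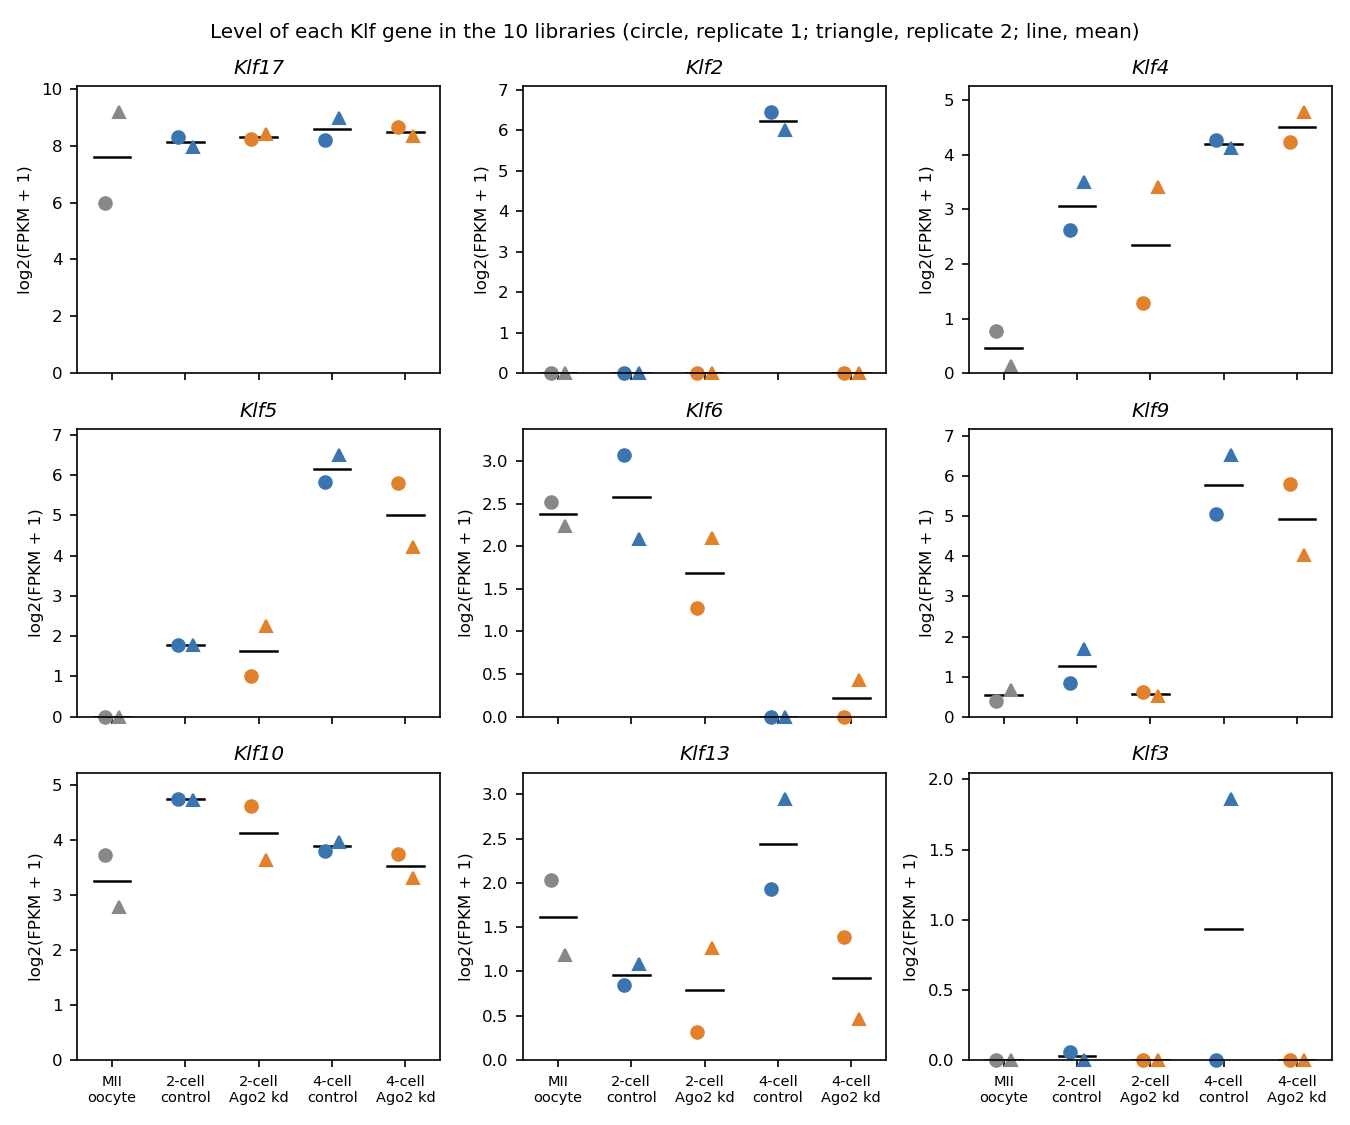
Level of each gene as log2(FPKM + 1) (y axis, scaled per gene) in the 5 groups (x axis), with a circle for replicate 1, a triangle for replicate 2 and a line for their mean. Klf2 stands at 0 in all libraries but the 4-cell controls, and the oocyte values of Klf17 lie far apart.

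Klf17 (ENSMUSG00000048626.5; chromosome 4, 117757836 to 117765648 of GRCm38) was measured at 62.7 and 577 FPKM in MII oocytes. In control embryos it was at 317 and 249 FPKM (2-cell) and at 293 and 506 FPKM (4-cell). The Ago2 kd values were 302 and 335 FPKM (2-cell) and 399 and 319.8 FPKM (4-cell). Its level exceeded that of 99.2% or more of the genes in the table in 9 libraries, and that of 94.9% in MII oocyte replicate 1. The oocyte values overlapped all embryo values, and no neighbouring pair of groups differed beyond its spread. The step from oocyte to 2-cell embryo was 0.55 on the log2 scale (standard error 0.91), with a 95% interval of -1.60 to 2.71. This interval rests on the 9.21-fold gap between the oocyte libraries, a gap reached by 11 of the 769 genes with a mean of 100 FPKM or more in oocytes. Without MII oocyte replicate 2 the step was 2.14 (adjusted p = 0.0276 from limma), and without replicate 1 it was -1.04, so the oocyte libraries decide its direction. Likewise, from oocyte to 4-cell embryo the difference was 1.01 with both, 2.60 without replicate 2 (adjusted p = 0.00641) and -0.58 without replicate 1.

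Of the activators that support pluripotency, Klf4 and Klf5 were below 1 FPKM in oocytes and above it in 2-cell control embryos. Klf5 rose further between the 2-cell and the 4-cell stage, and Klf2 was listed above 0 only in 4-cell control embryos. Klf4 (ENSMUSG00000003032.8; chromosome 4, 55527143 to 55532466), one of the factors used to reprogram somatic cells, was at 0.722 and 0.0974 FPKM in oocytes. Its control levels were 5.14 and 10.4 FPKM at the 2-cell stage and 18.4 and 16.5 FPKM at the 4-cell stage. Each stage lay wholly above the one before. From oocyte to 2-cell embryo Klf4 rose by 2.60 log2 units (standard error 0.73, adjusted p = 0.0465), the 1 member of 8 called at this step. Over all genes tested, 6.54% were called higher and 14.2% lower at this step (571 and 1240 genes). This split depended on scaling, with 1054 and 590 genes on the TPM scale (each library scaled to the same sum), 766 and 874 with median scaling and 707 and 782 with quantile normalization. This call was close to the threshold: leaving out any 1 of the 4 libraries gave an adjusted p of 0.0815 to 0.207, with differences of 2.16 to 3.05. Between the 2-cell and the 4-cell stage the difference was 1.14 (95% interval -0.59 to 2.88, adjusted p = 0.263), and from oocyte to 4-cell embryo Klf4 rose by 3.74 (standard error 0.73, adjusted p = 0.00525).

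Klf5 (ENSMUSG00000005148.8; chromosome 14, 99298691 to 99315036), which is needed for the blastocyst lineages, was listed at 0 in both oocyte libraries. In control embryos it reached 2.44 and 2.46 FPKM at the 2-cell stage, then 56 and 88.6 FPKM at the 4-cell stage. The 3 stages did not overlap. From the 2-cell to the 4-cell stage Klf5 rose by 4.37 log2 units (standard error 0.66, adjusted p = 0.00255). At the first step its unadjusted p was 0.0299 and its adjusted p 0.106. Klf2 (ENSMUSG00000055148.7; chromosome 8, 72319033 to 72321656) was listed at 0 in oocytes and in all 2-cell libraries, and had 86.6 and 63.8 FPKM in 4-cell control embryos (adjusted p = 5.24e-05 against 2-cell control embryos). Klf2 passed the filter on low values through these 4-cell control libraries alone, so this p is not independent support for a rise. No fold change is given for a group listed at 0.

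Klf6 (ENSMUSG00000000078.7; chromosome 13, 5861482 to 5870394), a broadly expressed activator, moved the other way. Oocytes had 4.72 and 3.70 FPKM, 2-cell control embryos had 7.37 and 3.25 FPKM, and both 4-cell control libraries listed it at 0. The first step was 0.20 log2 units (95% interval -0.90 to 1.31), and without 2-cell control replicate 1 it was -0.29. The fall to the 4-cell stage was called (adjusted p = 0.00555 against 2-cell embryos and 0.00538 against oocytes). Of the 8 genes tested, Klf6 was the 1 called lower at a step of the control series.

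Among the repressors that bind SIN3A, Klf9 rose, Klf10 was present throughout and Klf13 stayed low. Klf9 (ENSMUSG00000033863.2; chromosome 19, 23141226 to 23168134), a target of glucocorticoid and thyroid hormone receptors in other tissues, was low in oocytes, at 0.315 and 0.591 FPKM, and in 2-cell control embryos, at 0.776 and 2.24 FPKM. In 4-cell control embryos it had 32.1 and 90.8 FPKM, above every library of the earlier stages. From the 2-cell to the 4-cell stage it rose by 4.52 log2 units (standard error 0.74, adjusted p = 0.00369). Klf10 (ENSMUSG00000037465.10; chromosome 15, 38291463 to 38300706), first found as a gene induced by TGF-beta, was at 12.3 and 5.89 FPKM in oocytes. Along the control series it then had 25.9 and 25.5 FPKM (2-cell) and 13 and 14.6 FPKM (4-cell), so that its highest control values were at the 2-cell stage. Its first step was 1.48 (standard error 0.49, unadjusted p = 0.019, adjusted p = 0.0761) and its second was -0.85 (adjusted p = 0.215). The first step of Klf10 was called on the TPM scale (2.71, adjusted p = 0.0226), with median scaling (2.06, adjusted p = 0.0479) and with quantile normalization (2.17, adjusted p = 0.0495). That of Klf5 was called on the TPM scale, with a pseudocount of 0.1 and with only the groups compared (adjusted p = 0.0229, 0.00845 and 0.0157).

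Klf13 (ENSMUSG00000052040.10; chromosome 7, 63886351 to 63938915) was at 3.09 and 1.28 FPKM in oocytes. The 2-cell control libraries had 0.792 and 1.12 FPKM, and the 4-cell control libraries 2.81 and 6.72 FPKM. The 4-cell libraries lay above the 2-cell libraries by 1.48 log2 units (standard error 0.58, adjusted p = 0.0873), and neither step of Klf13 was called. The annotation places 2 genes on the opposite strand of Klf13, and whether reads were counted by strand is not given in the sources used here. Klf3 (ENSMUSG00000029178.14; chromosome 5, 64803388 to 64832901), the CtBP-binding repressor, had 2.63 FPKM in 4-cell control replicate 2 and 0.0407 FPKM in 2-cell control replicate 1, and was listed at 0 in the other 8 libraries. It was not tested.

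Over the 8 genes tested, 3 were called higher (Klf2, Klf5 and Klf9) and 1 lower (Klf6) from the 2-cell to the 4-cell stage. Over all genes tested, 21.1% were called higher and 17.5% lower at this step. The median difference of the 8 genes was 1.31, against 0.24 over all genes tested. From oocyte to 4-cell embryo, 4 were called higher and 1 lower (22% and 26.3% of all genes), with a median of 2.38 against 0.00 over all genes. For this pair of stages the TPM scale gave 2306 higher and 1813 lower genes, against 1923 and 2299. The TPM scale moved the median of all genes by 0.45 from oocyte to 2-cell embryo and by -0.17 from the 2-cell to the 4-cell stage. These steps share the control libraries of the middle stage. Both counts of genes called higher at the 4-cell stage include Klf2, which passed the filter through the 4-cell control libraries alone.

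**Figure D2:**
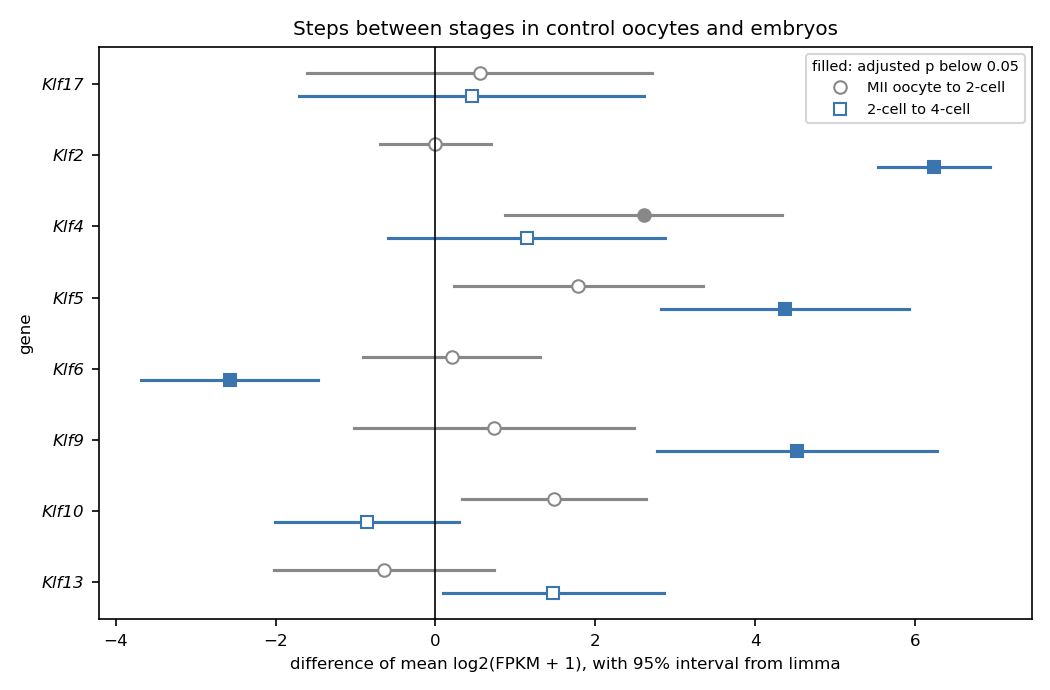
Difference of mean log2(FPKM + 1) (x axis) for each tested gene (y axis) from MII oocyte to 2-cell embryo and from 2-cell to 4-cell embryo in the control series. Bars are 95% intervals from limma, and filled symbols mark an adjusted p below 0.05. Klf4 is filled at the first step and Klf2, Klf5, Klf6 and Klf9 at the second.

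The comparison of Ago2 kd with control embryos asks whether the level of these mRNAs depends on Ago2 at each stage. With 2 libraries against 2, the smallest p of an exact, two-sided permutation test on 1 gene is 0.333, so each p given depends on the variance pooled by limma. At the 2-cell stage, 0 of the 8 genes were called by limma, and 0 had an unadjusted p below 0.05. Over all genes tested, 0.55% were called and 5.96% had such an unadjusted p. Differences of the 8 genes ranged from -0.89 to 0.18, with a median of -0.39 against 0.00 over all genes. The 8 include Klf2, which was listed at 0 in all 2-cell libraries and so could not be called. Klf17, the most abundant, differed by 0.18 (95% interval -1.98 to 2.34), so a change of several fold in either direction would not have been resolved.

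For Klf4 and Klf5 the 2-cell Ago2 kd libraries were uneven. Klf4 had 1.45 and 9.66 FPKM after Ago2 kd against 5.14 and 10.4 FPKM in control, a difference of -0.71 (95% interval -2.44 to 1.03). Without Ago2 kd replicate 1 the difference was 0.35. Klf5 had 1.01 and 3.76 FPKM on either side of the control values (95% interval -1.72 to 1.39). Klf6 had 1.42 and 3.28 FPKM, a difference of -0.89 (95% interval -2.00 to 0.22). Of the Sin3-binding group, Klf9 had 0.524 and 0.439 FPKM and Klf10 had 23.5 and 11.5 FPKM, and both genes lay below both control libraries. Such a complete separation downwards was found in 2 of the 8 genes and in 14.7% of all genes. Klf13 had 0.243 and 1.41 FPKM, overlapping control. Summed over the 7 markers of 2-cell genome activation found in the table, of 9, levels were 344 to 479 FPKM in 2-cell Ago2 kd embryos and 610 to 689 FPKM in control. Of the 6 markers tested, 0 were called, 2 (Tcstv3 and Usp17la) lay wholly below control and 2 (Tcstv1 and Usp17lc) wholly above, and their part in these values was not tested.

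At the 4-cell stage, Klf2 was the 1 Klf gene called, and it was lower. Its 86.6 and 63.8 FPKM in control embryos stood against 0 in both Ago2 kd libraries (adjusted p = 0.00022 from limma). Over all genes tested, 2.77% were called lower and 1.23% higher. Klf2 passed the filter through the 4-cell control libraries alone, and 4 of the 5 groups behind its variance had no spread because all their values were 0. Its standard error was 0.29 in the fit of all libraries and 0.41 in the fit of these 4. When the fit held only the 4 libraries of this stage, the adjusted p of Klf2 was 0.157, which was the lowest of all genes, so that 0 of 8726 genes were called. By an unadjusted p, Klf2 stood at 1.56e-07 in the fit of all libraries and at 0.00064 in the fit of these 4. Klf2 was at 0 in Ago2 kd replicate 1 and in replicate 2. In replicate 2, 2.04% of the genes above 10 FPKM in replicate 1 were below 0.1 FPKM. That share does not cover Klf2, which was not above 10 FPKM in replicate 1, and missed signal was not tested. Leaving out 1 of the 4 libraries could not test this call. Both Ago2 kd values are 0, and without 1 control library no spread between replicates of Klf2 remains. With Klf2 at 0 in all 2-cell libraries, its interaction between Ago2 kd and stage repeats the 4-cell difference and does not show that the effect depends on the stage. Of the other 7 genes, 0 were called for this interaction, against 2.28% of all genes tested, and their unadjusted p was 0.138 or more.

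Genes listed at 0 in both 4-cell Ago2 kd libraries were counted as a description. The limit was set from Klf2 itself, so the counts do not test its loss of signal. With a limit of 50 FPKM chosen after the values of Klf2 were seen, 815 genes reached it in both 4-cell control libraries, and 9 of them, Klf2 included, were listed at 0 in both 4-cell Ago2 kd libraries. For 5 of these 9, Klf2 included, all 8 libraries other than the 4-cell controls were at 0. In the opposite direction, 658 genes reached 50 FPKM in both Ago2 kd libraries, and 0 of them were listed at 0 in both control libraries. Klf2 has 1 annotated transcript of 3 exons, and no other annotated gene overlaps it.

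The other genes that had risen in 4-cell control embryos were present after Ago2 kd. Klf4 had 17.9 and 26.5 FPKM against 18.4 and 16.5 FPKM in control, a difference of 0.31 (95% interval -1.43 to 2.04). Klf5 had 55.3 and 17.4 FPKM against 56 and 88.6 FPKM, a difference of -1.15 (95% interval -2.71 to 0.40, adjusted p = 0.49). Both Ago2 kd values of Klf5 lay below both control values, but replicate 1 missed the lower control value by less than 1 FPKM. Klf9 had 55.4 and 15.4 FPKM against 32.1 and 90.8 FPKM, a difference of -0.86 (95% interval -2.61 to 0.90), and without Ago2 kd replicate 2 it was 0.03.

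Klf10 had 12.4 and 8.94 FPKM against 13 and 14.6 FPKM in control (95% interval -1.51 to 0.80). Klf13 had 1.61 and 0.38 FPKM against 2.81 and 6.72 FPKM, a difference of -1.51 (standard error 0.58) whose unadjusted p was 0.0355 and adjusted p 0.274. Klf6 was listed at 0 in Ago2 kd replicate 1 and had 0.35 FPKM in replicate 2, against 0 in both control libraries. Klf17 differed by -0.11 (95% interval -2.26 to 2.05), the smallest difference of the 8. The width of this interval also includes the gap between the oocyte libraries. In 4 of the 8 genes (Klf2, Klf5, Klf10 and Klf13) both Ago2 kd values lay below both control values, as in 16.9% of all genes, and in 0 above, against 20.1%. The median difference of the 8 genes was -0.61, against 0.00 over all genes. Markers of earlier stages were mixed in 4-cell Ago2 kd embryos. The sums over the 7 oocyte markers were 20.9 to 36.8 FPKM, against 4.38 to 10.7 FPKM in control. Of the 5 tested, 0 were called and 1 (Oosp1) lay wholly above control, and Zp3 had 23.5 FPKM in Ago2 kd replicate 1 but 0 in replicate 2. Of the markers of 2-cell genome activation, Tcstv3 had 13.7 and 13.5 FPKM against 0.541 and 0.812 FPKM (adjusted p = 0.00485 from limma). Tcstv1 and Zfp352 lay wholly above control without a call, and Eif1a lay wholly below. The sums over the 7 of these markers in the table overlapped, at 25.1 to 72.6 FPKM against 50.1 to 69.2 FPKM in control. This overlap rested on Eif1a, with 0 and 43.5 FPKM after Ago2 kd against 62 and 47.6 FPKM in control. Eif1a was listed at 0 in all 2-cell libraries, so in these data it did not mark the 2-cell stage. The part of these markers in the Klf values was not tested. Mitochondrial genes took 10.8% and 5.22% of the FPKM in 4-cell control and 11.1% and 13% in 4-cell Ago2 kd libraries, and their part in these differences was not tested.

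**Figure D3:**
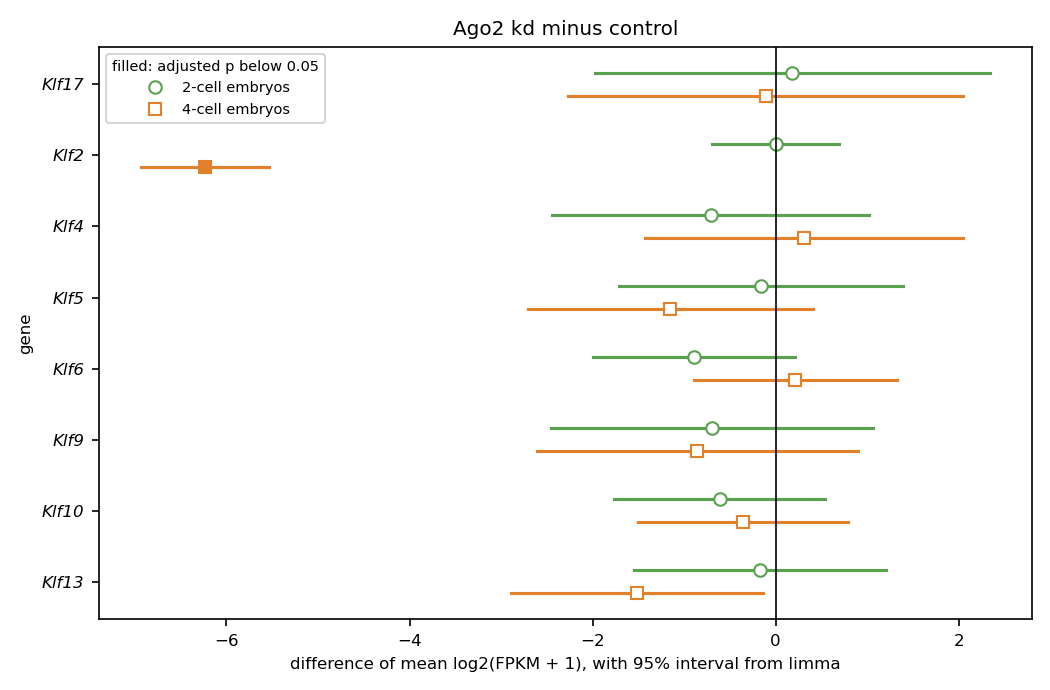
Ago2 kd minus control as a difference of mean log2(FPKM + 1) (x axis) for each tested gene (y axis) in 2-cell and in 4-cell embryos. Bars are 95% intervals from limma, and the filled symbol marks an adjusted p below 0.05. Klf2 in 4-cell embryos, listed at 0 in both Ago2 kd libraries, is the 1 filled symbol, and the intervals of the other genes reach 0 except that of Klf13 at the 4-cell stage.

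Within Ago2 kd embryos, the rise of Klf5 and Klf9 from the 2-cell to the 4-cell stage was also called. Klf5 rose by 3.38 log2 units (standard error 0.66, adjusted p = 0.00745) and Klf9 by 4.36 (standard error 0.74, adjusted p = 0.00438). Klf6 fell by 1.47 (standard error 0.47, adjusted p = 0.0476). Leaving out 2-cell Ago2 kd replicate 2, 4-cell Ago2 kd replicate 1 or 4-cell Ago2 kd replicate 2 ended the call of Klf6, with adjusted p of 0.192, 0.143 and 0.0782. Klf4 rose by 2.16 without a call (standard error 0.73, adjusted p = 0.0587), and it was called without 2-cell Ago2 kd replicate 2 (3.22, adjusted p = 0.0118). Over all genes tested, 18.8% were called higher and 16.5% lower at this step. For Klf4, Klf5, Klf6 and Klf9 the difference between the effects at both stages was -0.99 to 1.11, and the adjusted p of this interaction was 0.556 to 0.976.

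Of the 8 other Klf genes looked for, 3 passed the filter on low values. Klf11, which like Klf10 binds SIN3A, was at 36.2 and 31.4 FPKM in oocytes and at 50.9 and 47.2 FPKM (2-cell) and 42 and 70.3 FPKM (4-cell) in control embryos. Its mean level was second to that of Klf17 among these 3 genes and the 9. Klf16 rose from 7.52 and 14.8 FPKM in 2-cell to 24 and 68.7 FPKM in 4-cell control embryos (adjusted p = 0.0457). Klf7, the closest relative of Klf6, had 4.59 and 2.64 FPKM in 2-cell control embryos. Both 4-cell control libraries listed it at 0, as they did Klf6 (adjusted p = 0.0107). Of these 3 genes, 0 were called after Ago2 kd at either stage, and 0 had an unadjusted p below 0.05. Among Sp genes, whose zinc fingers bind the same GC-rich sites, 2 of 9 were tested, and Sp3 rose from the 2-cell to the 4-cell stage (adjusted p = 0.037).

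Of 16 cofactors of Klf proteins looked for, 10 were tested. From oocyte to 4-cell embryo, 5 of these were called lower and 0 higher, against 26.3% and 22% of all genes tested. These were Sin3a and Sin3b, which encode the scaffolds bound by KLF9, KLF10 and KLF13, Ctbp2, which encodes a partner of KLF3, and Pias1 and Cited2. Ctbp2 stood at 45.3 and 53.3 FPKM in 2-cell control libraries, against 0.294 and 0.211 FPKM after Ago2 kd (adjusted p = 0.00351). Hdac2, which encodes a deacetylase of the SIN3A complex, stood at 64 and 31.3 FPKM in 4-cell control libraries, against 0.13 and 0.172 FPKM after Ago2 kd (adjusted p = 0.00257). Ctbp2 at the 2-cell stage and Hdac2 at the 4-cell stage were the only 2 calls of this list in the Ago2 kd comparisons.

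Of 11 transcription factors that work with KLF2, KLF4 and KLF5 in pluripotent cells, 6 were tested. From the 2-cell to the 4-cell control stage, Nanog and Sall4 rose and Pou5f1 fell (adjusted p = 0.0256, 0.00113 and 0.0234). Nanog was listed at 0 in oocytes and in 2-cell control embryos. Sall4 had been higher in oocytes, at 234.7 and 273.2 FPKM, and had fallen to 0.337 and 0.197 FPKM in 2-cell control embryos (adjusted p = 0.00111). Sall4, a regulator of Pou5f1, was the 1 of the 6 called after Ago2 kd, with 105 and 110.4 FPKM in the 4-cell controls against 0.0929 and 0.0878 FPKM in both Ago2 kd libraries (adjusted p = 0.00515). Pou5f1 lay wholly below control at the 4-cell stage without a call, at 7.39 and 6.01 FPKM against 23.1 and 18.5 FPKM (unadjusted p = 0.00545, adjusted p = 0.093 from limma). At the 2-cell stage it lay wholly above control, at 133.6 and 77.1 FPKM against 52.3 and 62.4 FPKM (adjusted p = 0.939). Nanog, at 6.43 and 5.2 FPKM in the 4-cell controls, with Ago2 kd values of 1.92 and 16.6 FPKM on either side, was not called.

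The genes whose pattern was most like that of a member were found by Pearson's r of log2(FPKM + 1) over the 10 libraries, as a description, since these values share libraries and stages. For Klf2 they were Bbc3, with 12.1 and 10.1 FPKM in 4-cell control embryos and 0 elsewhere (r = 1), and Ankrd28 (r = 0.999974). With Klf2, 97 genes had an r of 0.95 or more. For Klf4 they were 1110008P14Rik (r = 0.99) and Nepro (r = 0.986), and for Klf5 Gm12263 (r = 0.988) and Eif4h (r = 0.986). For Klf6 they were Gm2076 (r = 0.977) and Zfp655 (r = 0.976), and for Klf9 2310011J03Rik is given (r = 0.99). Among the 9 genes themselves, the highest r was that of Klf5 with Klf9 (0.96), followed by Klf4 with Klf5 (0.859).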

How the data were processed

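FPKM values were deposited by the authors, who computed them with StringTie from reads trimmed by Trim Galore and aligned to GRCm38 by HISAT2 (2.1.0 per the labels' processing notes). Each gene name has 1 FPKM for a library. How several identifiers of a gene became 1 row is not described. In the study's supplementary list of maternal mRNAs, the embryo libraries carry the deposited values, whereas the oocyte replicates carry other values with, for most genes, the same sum. FPKM do not show how many reads a library held, so its depth is unknown and counting error cannot be given. That replicates came from separate embryo collections is not stated, so p values measure the spread between these libraries.

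Libraries were grouped by their titles. FPKM were analysed as log2(FPKM + 1) with limma 3.58.1 in R 4.3.3, with 5 group means over 10 libraries (5 residual degrees of freedom), a variance trend and two-sided tests, after a filter of at least 1 FPKM in at least 2 libraries. The fit was tested on simulated data. The 9 genes and the gene lists were chosen with earlier results of these data known. Named beyond the 9 were called genes of the lists, their most abundant genes, and the 2 genes closest to each varying member by Pearson's r, of which 1 is not reported here. Positions came from GENCODE M21, promoter windows from RefSeq, both on GRCm38. Alternatives were a pseudocount of 0.1, no filter, TPM scale, median scaling, quantile normalization, a replicate block, fits of only the groups compared, no variance trend, and leaving out each library. The fit without the oocyte libraries was chosen after seeing the data. Figures were drawn with matplotlib 3.10.9.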

Additional observations from a re-analysis of the deposited data

Results flagged for a closer look

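For 5 genes, the interaction term of limma for Ago2 kd and stage was called. It is the 4-cell minus the 2-cell effect on log2(FPKM + 1). For 3 of them 1 stage was at or near 0 in all its libraries, so that the term mainly repeats the effect at the other stage. It was -6.24 for Klf2 (adjusted p = 0.00204), which was listed at 0 in all 2-cell libraries. It was -5.34 for Hdac2 (adjusted p = 0.0176), whose 2-cell values were 0.0881 and 0.118 FPKM (control) and 0.153 and 0.0893 FPKM (Ago2 kd). For Ctbp2 it was 4.93 (adjusted p = 0.00508), with 4-cell values of 0.0507 and 0.64 FPKM in control and 0 in both Ago2 kd libraries. For Sall4 it was -9.93 (adjusted p = 0.00668). Besides the lower level at the 4-cell stage, this includes a 2-cell difference of 3.29 in the other direction, from 0.337 and 0.197 FPKM in control to 30.7 and 3.85 FPKM after Ago2 kd (unadjusted p = 0.00439, adjusted p = 0.238). For Tcstv3, one of the markers of 2-cell genome activation, it was 4.23 (adjusted p = 0.00928), and both 2-cell Ago2 kd libraries listed the same value, 134.1 FPKM.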

How the results depend on the processing

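With all 10 libraries, 1 Klf gene was called from oocyte to 2-cell embryo. This number was 2 with a pseudocount of 0.1, with median scaling and with quantile normalization, 3 on the TPM scale, 0 without the filter on low values and 0 with the replicate block. With only the groups compared it was 1, but the gene was Klf5, and Klf4 lost its call (adjusted p = 0.0685). Leaving out 1 library gave 0 to 1. When only the groups compared were fitted, the number fell from 1 to 0 for Ago2 kd against control at the 4-cell stage and from 3 to 1 from the 2-cell to the 4-cell stage within Ago2 kd embryos. For the other comparisons, the number of Klf genes called stayed within 1.5 times under every alternative that was run. Klf6 within Ago2 kd embryos lost its call without the filter, with the block, without the oocyte libraries and with only the groups compared (adjusted p = 0.0945, 0.0729, 0.0718 and 0.11). The replicate numbers share only a number: deviations of same-numbered libraries correlated at -0.0931 to 0.0924 between groups. Over all genes, Ago2 kd at the 2-cell stage gave 29 higher and 19 lower calls, but 55 and 40 without the filter, 10 and 13 with the block, 54 and 51 without 2-cell Ago2 kd replicate 2 and 0 with only the groups compared. At the 4-cell stage these were 107 and 242, 68 and 177 with the block, 66 and 186 without the oocyte libraries, 183 and 254 without 4-cell Ago2 kd replicate 1, 151 and 512 without replicate 2 and 0 with only the groups compared. With FPKM only, counting error cannot be separated from the spread between libraries.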
